A study of Mus musculus with 30 samples.

Results

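Natural killer (NK) cell receptors were followed across 3 types of B16 melanoma through 9 genes, Ncr1, Klrb1c, Klrk1, Klrd1, Klrc1, Klre1, Klra4, Klra7 and Klra8. The 9 genes were chosen by name as receptors of NK cells, out of 39676 genes listed in the counts. Earlier results of these data were known when they were chosen. All 9 had a row, and all 9 were among the 15926 genes that entered the tests by averaging 10 counts or more over the tumors. RNA was sequenced from 30 whole tumors taken 8 days after engraftment, 10 of each type, and the labels call the 10 tumors of a type biological replicates without giving a batch. Every tumor grew under the skin of female C57BL/6 mice, typically 8 to 12 weeks old, from the mouse melanoma line B16, sequentially transduced with retroviruses to carry glycoprotein B (gB) of herpes simplex virus and firefly luciferase (luc). B16.GFP.gB.luc cells, the control, carried the empty vector with enhanced green fluorescent protein, B16.IFNα4.gB.luc cells the same vector with murine IFNα4, and B16.IFNα9.gB.luc cells the vector with murine IFNα9, each driven by the retroviral promoter in the melanoma cells. In the labels these tumors are B16-GFP, B16-IFNA4 and B16-IFNA9, and they are called GFP, IFNα4 and IFNα9 tumors here. Total counts ran from 14598517 to 19788383 per tumor. The transgenes matched the labels, since Ifna4 had 81 to 188 counts in IFNα4 tumors and Ifna9 had 55 to 148 counts in IFNα9 tumors, with 0 counts of either gene in all tumors of the other types.

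NK cells kill stressed, infected or transformed cells without prior sensitization, and the balance between activating and inhibitory receptors on their surface sets whether they do so. Many activating receptors carry no signaling tail of their own and pair with adaptors such as DAP10, DAP12 or the Fc receptor gamma chain. Many inhibitory receptors bind class I major histocompatibility complex (MHC) molecules and recruit phosphatases. Type I interferon (IFN-I) is a known activator of NK cells, and melanoma lines such as B16 are a common target in studies of NK cell killing. Among the 9 genes, Ncr1 encodes NKp46 and Klrb1c encodes NK1.1, the receptor by which NK cells of this strain are commonly identified, and Klrk1 encodes NKG2D, the receptor for stress-induced ligands. Klrd1 encodes CD94, the partner of the inhibitory NKG2A chain encoded by Klrc1. Klre1 encodes a receptor chain that pairs with the products of Klri1 or Klri2, and Klra4, Klra7 and Klra8 encode the Ly49 receptors Ly49D (activating), Ly49G (inhibitory) and Ly49H (activating).

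Ncr1 lay alone at chr7:4337724-4345164 on the plus strand, while the other 8 genes lay in the NK gene complex of chromosome 6, from Klrb1c at chr6:128778485-128789215 to Klra7 at chr6:130218605-130233322 (GENCODE M21, build GRCm38). Between them lay Klre1 at chr6:129577905-129585827 and Klrd1 at chr6:129591782-129598775 on the plus strand. Klrk1 at chr6:129610323-129623864, Klrc1 at chr6:129666015-129678973, Klra4 at chr6:130043731-130067271 and Klra8 at chr6:130115226-130129898 lay on the minus strand. The promoter windows of RefSeq (GRCm38.p6), from 250 bases before to 50 bases after a start site, were available for 8 of the 9 genes, Klrd1 being without one, and gave 12 windows. Since all 9 genes moved together between tumor types, their windows were searched on both strands for letters bound by factors of NK cells and of interferon signaling. The RUNX letters TGTGGT stood in 6 of the 12 windows, those of 5 of the 8 genes (Ncr1, Klrb1c, Klrk1, Klrc1 and Klre1), and in 16.8% of the 32851 windows of all genes. Both windows of Ncr1 overlap and hold the same matches, and 1 of the windows of Klre1 holds none, so that windows are not separate observations. The T-box letters GGTGTGA, the ETS letters CAGGAAGT and the interferon-stimulated response element were in 0 of the 12 windows, against 3.98%, 3.33% and 3.44% of all windows. The STAT letters TTCNNNGAA were in 1 of the 12 windows, that of a second start of Klra7, against 8.30% of all. A match is a description of letters and not of binding, and no match says nothing about the factor. The windows at the annotated starts of Ncr1 (chr7:4337474-4337773, plus strand), Klrk1 (chr6:129623815-129624114, minus strand) and Klrc1 (chr6:129678924-129679223, minus strand) are shown, because they hold the RUNX letters in front of the member on chromosome 7 and of an activating and an inhibitory receptor of chromosome 6. Capitals mark TGTGGT or its reverse complement ACCACA.
Ncr1: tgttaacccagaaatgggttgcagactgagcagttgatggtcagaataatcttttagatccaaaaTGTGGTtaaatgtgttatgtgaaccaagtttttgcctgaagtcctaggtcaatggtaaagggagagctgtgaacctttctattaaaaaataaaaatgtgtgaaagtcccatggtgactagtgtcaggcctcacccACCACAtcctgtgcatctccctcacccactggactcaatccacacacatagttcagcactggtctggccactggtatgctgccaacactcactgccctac
Klrk1: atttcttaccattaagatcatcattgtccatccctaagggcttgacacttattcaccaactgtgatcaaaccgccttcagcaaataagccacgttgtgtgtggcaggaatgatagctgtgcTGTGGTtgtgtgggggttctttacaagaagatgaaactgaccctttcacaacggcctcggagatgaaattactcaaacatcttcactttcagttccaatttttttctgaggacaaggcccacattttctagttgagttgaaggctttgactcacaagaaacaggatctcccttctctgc
Klrc1: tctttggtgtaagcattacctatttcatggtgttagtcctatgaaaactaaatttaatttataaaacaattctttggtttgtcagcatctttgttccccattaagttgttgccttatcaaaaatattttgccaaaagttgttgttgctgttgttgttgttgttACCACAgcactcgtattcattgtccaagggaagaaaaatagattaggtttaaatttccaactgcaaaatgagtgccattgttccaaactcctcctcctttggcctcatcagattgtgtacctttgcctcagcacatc

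The 3 Ly49 genes are close relatives, and their windows show how alike they are in front of the start site. Those of Klra4 (chr6:130067222-130067521) and Klra8 (chr6:130129849-130130148), both on the minus strand, had the same base at 259 of 299 aligned positions (86.6%). The window of Klra7 (chr6:130233273-130233572, minus strand) matched that of Klra8 at 231 of 289 positions (79.9%) and that of Klra4 at 230 of 288 (79.9%). Capitals mark the longest run that all 3 windows share, 14 bases.
Klra4: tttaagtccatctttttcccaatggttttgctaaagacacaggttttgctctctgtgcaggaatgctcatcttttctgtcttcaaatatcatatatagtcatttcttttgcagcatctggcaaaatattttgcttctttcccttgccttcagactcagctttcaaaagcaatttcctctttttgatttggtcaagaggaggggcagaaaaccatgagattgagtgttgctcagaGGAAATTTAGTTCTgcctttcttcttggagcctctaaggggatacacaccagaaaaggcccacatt
Klra7: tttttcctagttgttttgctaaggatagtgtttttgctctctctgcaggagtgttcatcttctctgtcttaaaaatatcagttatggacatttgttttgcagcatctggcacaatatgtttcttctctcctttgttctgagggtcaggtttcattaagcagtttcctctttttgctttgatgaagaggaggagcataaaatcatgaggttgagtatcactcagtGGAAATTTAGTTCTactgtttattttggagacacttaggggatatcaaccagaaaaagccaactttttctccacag
Klra8: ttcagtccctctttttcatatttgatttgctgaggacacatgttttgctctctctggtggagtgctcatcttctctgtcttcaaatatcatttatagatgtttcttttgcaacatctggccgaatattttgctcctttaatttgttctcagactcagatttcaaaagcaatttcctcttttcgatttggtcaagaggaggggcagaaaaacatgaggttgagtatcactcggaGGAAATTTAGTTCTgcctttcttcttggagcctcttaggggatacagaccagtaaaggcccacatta

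All 9 receptor genes were higher in IFNα4 tumors and in IFNα9 tumors than in GFP tumors, activating and inhibitory receptors alike. The log2 fold change against GFP tumors ran from 3.13 (Klrd1) to 5.24 (Klra4) in IFNα4 tumors, with a median of 4.43, and from 2.53 (Klrd1) to 4.14 (Ncr1) in IFNα9 tumors, with a median of 3.81. The median over all genes tested was 0.01 and -0.00, respectively. All 9 were called by edgeR, whose p-values were adjusted by the Benjamini-Hochberg method over 15926 genes, and 31.3% of all genes were called higher in IFNα4 tumors and 26.9% in IFNα9 tumors, at an adjusted p under 0.05. The shares called lower were 34.1% and 28.9%. For all 9 genes the lowest IFN-I–secreting tumor of either type stood above the highest GFP tumor, a separation that 8.5% of all genes showed upward in IFNα4 tumors and 4.44% in IFNα9 tumors. Ordered by fold change, the 9 genes stood between rank 11 and 182 of the 15926 genes in IFNα4 tumors and between rank 24 and 207 in IFNα9 tumors. Since the genes were chosen with earlier results of these data known, these ranks are a description and not a test. Both comparisons share the same 10 GFP tumors. In whole tumors, more NK cells and more receptor RNA per cell cannot be told apart.

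**Figure D1:**
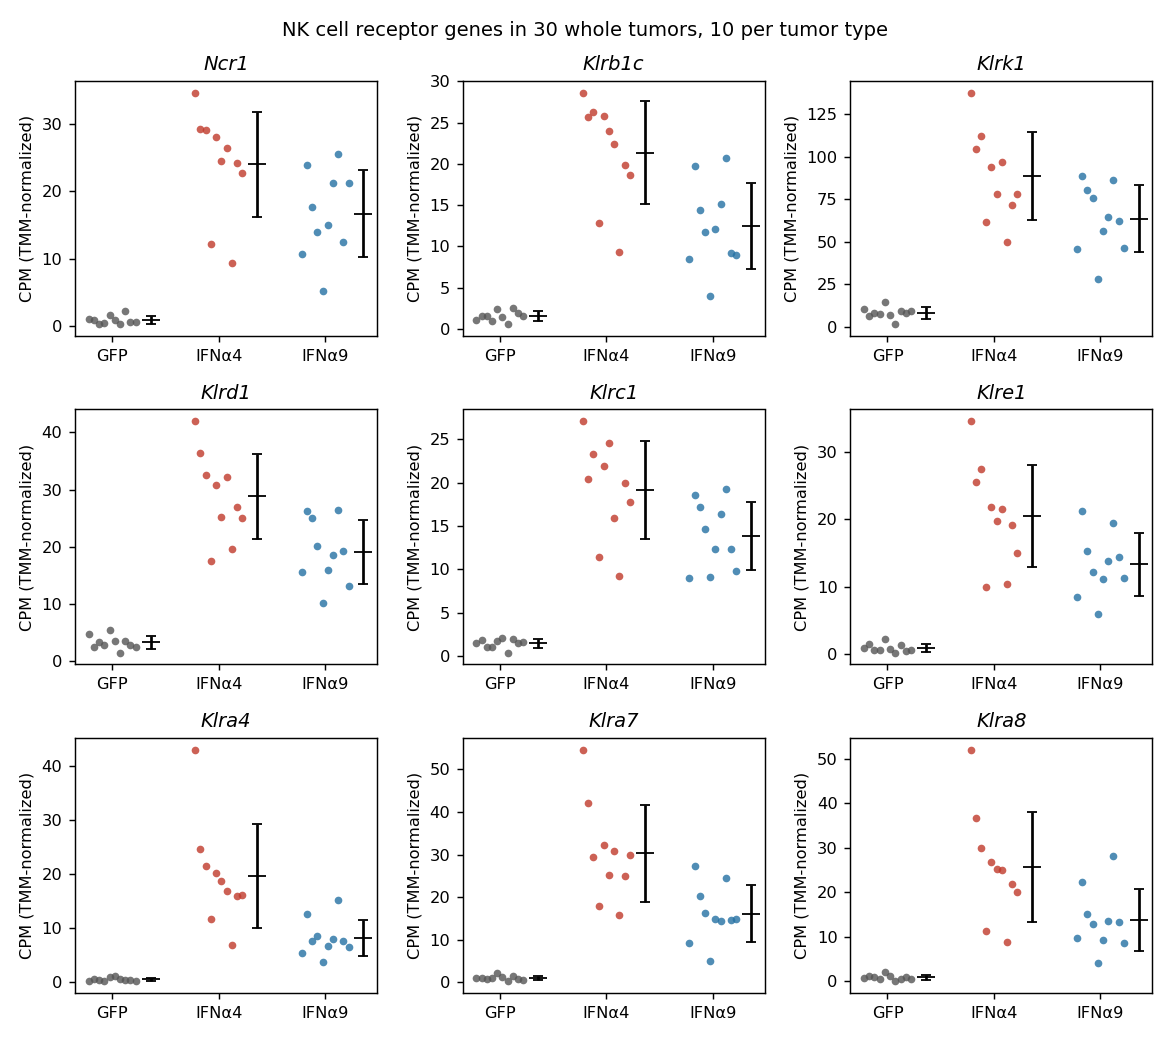
CPM (counts relative to the TMM-scaled library total, linear y axis) of the 9 NK cell receptor genes in each of 10 GFP, 10 IFNα4 and 10 IFNα9 tumors (x axis); each point is a tumor, the bar is the mean and the whiskers are ± 1 SD. All GFP tumors lie below all IFNα4 and IFNα9 tumors for each gene, and the IFNα4 and IFNα9 tumors overlap.

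Among the activating receptors, Ncr1 had 3 to 41 counts in GFP tumors (median 12), 162 to 572 counts in IFNα4 tumors (median 444) and 97 to 400 counts in IFNα9 tumors (median 292.5). GFP tumors were low throughout and met neither IFN-I type, whereas the ranges of IFNα4 and IFNα9 tumors overlapped over most of their length. As CPM, counts relative to the TMM-scaled library total, Ncr1 was at 0.922 ± 0.628 CPM (SD, n = 10) in GFP tumors, 24.1 ± 7.79 CPM in IFNα4 tumors and 16.7 ± 6.39 CPM in IFNα9 tumors. The log2 fold change was 4.66 ± 0.33 (SE; 25.3-fold; edgeR adjusted p = 3.94e-13) in IFNα4 tumors and 4.14 ± 0.32 (17.6-fold; edgeR adjusted p = 8.95e-12) in IFNα9 tumors.

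Klrb1c ran from 6 to 45 counts in GFP tumors (median 24), from 162 to 513 in IFNα4 tumors (median 404) and from 75 to 330 in IFNα9 tumors (median 223). The rise of this NK1.1 gene was 3.77 ± 0.27 on the log2 scale in IFNα4 tumors (edgeR adjusted p = 7.42e-13) and 2.99 ± 0.27 in IFNα9 tumors (edgeR adjusted p = 1.58e-10). Of the 50-base stretches in its transcripts, the length of the reads, 17.0% also occurred in other genes, 12.4% in Gm44511, which shares 413 exonic bases with Klrb1c on the same strand, so that its counts are uncertain to that extent.

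Klrk1 was the member with the most counts, 17 to 270 in GFP tumors (median 132), 863 to 2219 in IFNα4 tumors (median 1496) and 529 to 1486 in IFNα9 tumors (median 1105.5). The lowest IFNα9 tumor still held more NKG2D transcript than the highest GFP tumor. Its log2 fold change was 3.40 ± 0.25 in IFNα4 tumors (edgeR adjusted p = 8.62e-13) and 2.92 ± 0.24 in IFNα9 tumors (edgeR adjusted p = 3.48e-11). Klrk1, Klrd1 and Klrc1 are known to be expressed by activated CD8 T cells as well as by NK cells.

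Klrd1 and Klrc1, whose products form the CD94/NKG2A receptor, rose together, and Klrd1 had the smallest fold change of the 9 genes in both comparisons. Klrd1 ran from 16 to 100 counts in GFP tumors (median 51.5), from 294 to 712 in IFNα4 tumors (median 494) and from 188 to 438 in IFNα9 tumors (median 323.5). Klrc1 ran from 4 to 34 counts in GFP tumors (median 26.5), from 161 to 455 in IFNα4 tumors (median 358.5) and from 150 to 310 in IFNα9 tumors (median 252.5). For both genes the GFP tumors formed a low range of their own. Klrd1 rose by 3.13 ± 0.21 on the log2 scale in IFNα4 tumors (edgeR adjusted p = 9.22e-14) and by 2.53 ± 0.20 in IFNα9 tumors (edgeR adjusted p = 1.45e-11), and Klrc1 by 3.70 ± 0.23 (edgeR adjusted p = 2.7e-14) and 3.23 ± 0.23 (edgeR adjusted p = 1.1e-12). Of the 50-base stretches of Klrd1, 0 occurred unchanged in the annotated transcripts of another gene, as for Ncr1 and Klrk1. Klrc1 shared 38.6% of its stretches, 36.6% with Klrc2, which itself had a log2 fold change of 4.17 in IFNα4 and 3.41 in IFNα9 tumors.

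Klre1 ran from 2 to 41 counts in GFP tumors (median 11.5), from 168 to 557 in IFNα4 tumors (median 358.5) and from 110 to 355 in IFNα9 tumors (median 229.5). This gene, with 0.28% of its stretches shared, rose by 4.43 ± 0.31 on the log2 scale in IFNα4 tumors (edgeR adjusted p = 5.21e-13) and by 3.81 ± 0.31 in IFNα9 tumors (edgeR adjusted p = 2.14e-11). The genes of its partner chains, Klri1 and Klri2, rose as well, and their rises were not tested against each other. Klri2 had log2 fold changes of 3.73 and 2.92 in IFNα4 and IFNα9 tumors, and Klri1 of 2.16 and 2.27.

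The Ly49 genes had the 3 highest log2 fold changes of the members in IFNα4 tumors, though Klra7 and Klra8 exceeded Ncr1 by less than the SEs. Klra4, which encodes the activating Ly49D, had 3 to 19 counts in GFP tumors (median 7), 121 to 694 in IFNα4 tumors (median 310) and 71 to 233 in IFNα9 tumors (median 129.5). Klra7, which encodes the inhibitory Ly49G, had 3 to 39 counts in GFP tumors (median 18), 274 to 882 in IFNα4 tumors (median 511) and 93 to 457 in IFNα9 tumors (median 270.5). Klra8, which encodes Ly49H, the activating receptor for a mouse cytomegalovirus protein, had 0 to 36 counts in GFP tumors (median 14), 153 to 839 in IFNα4 tumors (median 436) and 78 to 433 in IFNα9 tumors (median 227.5). The median IFNα9 tumor lay below the median IFNα4 tumor for each of these genes, and above every GFP tumor. The log2 fold changes against GFP tumors were 5.24 ± 0.34, 4.79 ± 0.30 and 4.85 ± 0.38 for Klra4, Klra7 and Klra8 in IFNα4 tumors (edgeR adjusted p of 9.68e-14, 2.73e-14 and 5.41e-12). In IFNα9 tumors they were 3.99 ± 0.34, 3.89 ± 0.29 and 3.94 ± 0.37 (edgeR adjusted p of 4.79e-11, 3.68e-12 and 5.94e-10). Klra8 shared 33.1% of its 50-base stretches, 20.4% with the pseudogene Klra14-ps and 10.7% with Klra9, and Klra7 shared 12.3% with Klra13-ps, whereas Klra4 shared 4.68%.

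Per kilobase of exon, Klrd1 was the most abundant of the 9 transcripts in GFP tumors at 2.55 ± 0.907 CPM per kb (SD, n = 10) and exceeded the next, Klrk1 at 1.16 ± 0.467 CPM per kb, by more than the larger SD. The other 7 followed from Klra7 at 0.844 CPM per kb down to Klre1 at 0.263, with no neighbors apart by more than their SD. In IFNα4 tumors, Klra7 (24.0 CPM per kb), Klrd1 (22.5) and Klra8 (21.9) led, and Klrb1c (7.21) and Klre1 (5.87) were lowest. In IFNα9 tumors the order was Klrd1 (14.9 CPM per kb), Klra7 (12.8), Klra8 (11.6), Ncr1 (10.9), Klrk1 (8.83), Klrc1 (6.98), Klra4 (6.60), Klrb1c (4.21) and Klre1 (3.80). Neighbors in these last 2 orders lay within their SD, so that only distant positions differ beyond the spread between tumors.

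All 9 genes had a lower fitted level in IFNα9 than in IFNα4 tumors, with a median log2 difference of -0.63 beside -0.01 for all genes, and 5 of the 9 passed the test. In this comparison 7.25% of all genes were called lower and 10.5% higher. The 3 Ly49 genes were among the 5, with Klra4 lower by 2.38-fold (log2 difference -1.25 ± 0.27, edgeR adjusted p = 0.00159), Klra7 by 1.87-fold (-0.91 ± 0.24, edgeR adjusted p = 0.00894) and Klra8 by 1.88-fold (-0.91 ± 0.31, edgeR adjusted p = 0.039). Klrb1c (-0.78 ± 0.24, edgeR adjusted p = 0.0203) and Klrd1 (-0.60 ± 0.19, edgeR adjusted p = 0.0234) were the others. The other 4 did not pass, namely Ncr1 (-0.53 ± 0.27, edgeR adjusted p = 0.177), Klrk1 (-0.48 ± 0.22, edgeR adjusted p = 0.138), Klrc1 (-0.47 ± 0.20, edgeR adjusted p = 0.101) and Klre1 (-0.63 ± 0.26, edgeR adjusted p = 0.094). The tumors of both types overlapped for every member, where 0.741% of all genes separated downward. The call of 5 rested partly on single tumors, being 3 without IFNα4 tumor 1, IFNα9 tumor 5 or IFNα9 tumor 10. Klrb1c, Klra4 and Klra7 passed in all 30 fits that left out 1 tumor, Klrd1 in 27 and Klra8 in 19.

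**Figure D2:**
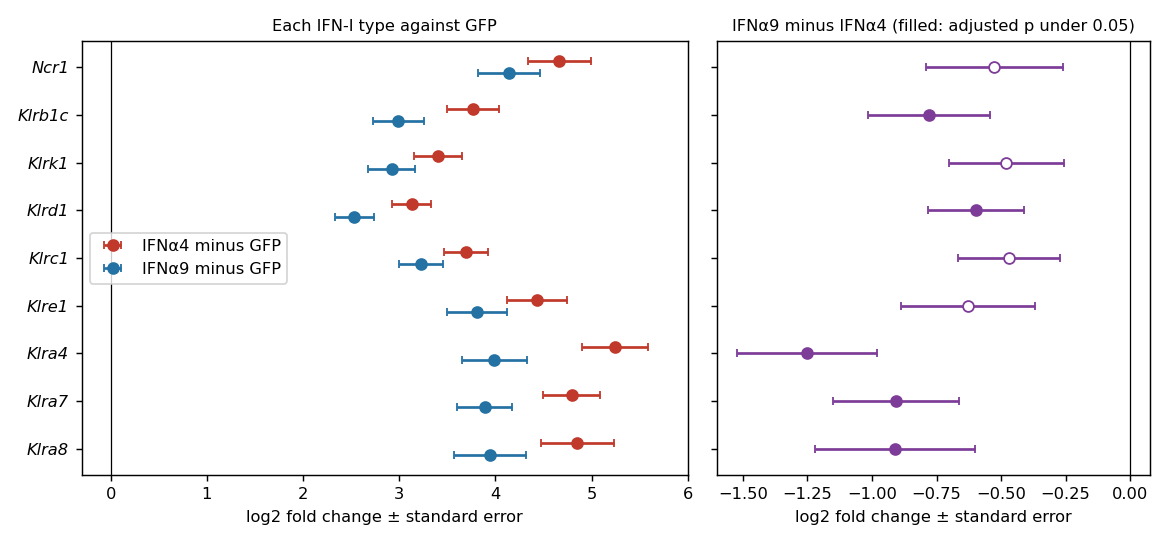
Log2 fold change ± standard error (x axis) of the 9 receptor genes (y axis), on the left for IFNα4 (red) and IFNα9 (blue) tumors against GFP tumors and on the right for IFNα9 minus IFNα4 tumors, n = 10 per type. On the left all values lie between 2.53 and 5.24, and on the right all lie below 0, with filled points for the 5 genes whose adjusted p was under 0.05.

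Within a tumor type the 9 genes tended to be high or low in the same tumors. Their summed level ran from 5.18 to 33.6 CPM in GFP tumors (median 17.7), from 139 to 454 CPM in IFNα4 tumors (median 277) and from 75.9 to 265 CPM in IFNα9 tumors (median 176). IFNα4 tumor 1 was highest of its type for all 9 genes, and tumors 4 and 8 were its lowest pair for all 9. IFNα9 tumors 2 and 8 were the highest pair for all 9 genes, and tumor 5 was lowest for 8 of them. GFP tumor 7 was lowest of its type for 8 of the 9 genes, and GFP tumor 5 highest for 5.

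**Figure D3:**
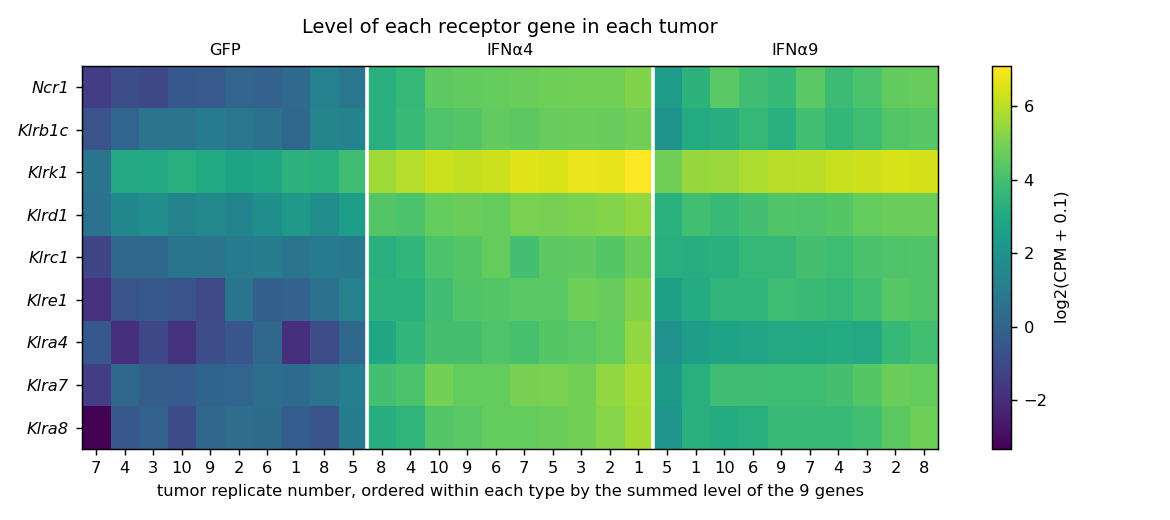
Log2(CPM + 0.1) of each receptor gene (rows) in each of the 30 tumors (columns, with their replicate number), ordered within a type by the summed level of the 9 genes. GFP tumor 7 has the lowest sum of all, IFNα4 tumor 1 the highest.

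GFP tumor 7 stood apart in other ways. It had the lowest TMM factor of the 30 (0.768), the lowest Ptprc level (19.6 CPM beside a median of 84.0 in GFP tumors) and the highest level of the pigment gene Tyrp1 (20517 CPM beside a median of 7827). The part of these in its low receptor levels was not tested. Without this tumor the log2 fold change of Klrk1 was 3.30 in IFNα4 and 2.81 in IFNα9 tumors, and all 9 genes were still called in both comparisons with GFP tumors.

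Ncr1 was correlated with each of the other 8 genes over the 10 tumors of a type, 24 relations in all. In IFNα4 tumors Pearson's r of the log2 CPM ran from 0.890 to 0.985 and Spearman's rho from 0.782 to 0.988, and all 8 relations passed by both (permutation tests, 100000 resamples, adjusted p of Pearson's r at most 0.00168). In IFNα9 tumors r ran from 0.715 to 0.910 and rho from 0.648 to 0.879, with 8 relations passing by r (permutation adjusted p at most 0.0197) and 7 by rho. In GFP tumors, where counts were low, r ran from 0.243 (Klra4) to 0.845 (Klre1) and rho from 0.115 to 0.842, with 6 of 8 passing by r and 5 by rho (permutation adjusted p up to 0.494 and 0.759). Leaving out the 2 tumors farthest from the median of Ncr1 gave r of 0.584 to 0.973 in IFNα4, 0.268 to 0.700 in IFNα9 and 0.443 to 0.800 in GFP tumors. In IFNα9 tumors the relations of Ncr1 with Klrd1 (0.268), Klrk1 (0.396) and Klra8 (0.440) rested largely on those 2 tumors, as did that with Klrb1c in GFP tumors (0.443). Among all other genes tested, 0.327% had an r with Ncr1 at or above the lowest passing member in IFNα4 tumors, 4.18% in IFNα9 tumors and 5.82% in GFP tumors, given as a description and without a test. Ptprc was as close to Ncr1 as the lower members, with r of 0.891, 0.830 and 0.614 in IFNα4, IFNα9 and GFP tumors, so that the relations are not particular to the receptors. Cd3e had r of 0.743, 0.171 and 0.573.

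Whether the receptors rose beyond other leukocyte transcripts was examined by ratios within each tumor. Ptprc, the pan-leukocyte gene for CD45, itself rose by 2.65 on the log2 scale in IFNα4 and by 2.14 in IFNα9 tumors. Relative to Ptprc, all 9 receptor genes were higher in IFNα4 than in GFP tumors, by 0.39 (Klrd1, limma adjusted p = 0.0395) to 2.27 (Klra4, limma adjusted p = 3.31e-08), where 0.904% of all genes were higher. With the replicate number as a block Klrd1 was not called (limma adjusted p = 0.0698), which left 8. In IFNα9 tumors 8 of the 9 were higher than in GFP tumors, where again 0.904% of all genes were, and Klrd1 was not called (0.32, limma adjusted p = 0.0915). Without GFP tumor 7 Klrd1 was called as well (0.41, limma adjusted p = 0.01), which made 9 of 9. Between IFNα9 and IFNα4 tumors, 0 of the 9 were called relative to Ptprc by limma, though Klra7 (-0.41) and Klra4 (-0.66) had unadjusted p of 0.0388 and 0.0465, beside 0.289% of all genes called lower. In a fit of only these 20 tumors, added after the data were seen, both were called by limma (adjusted p = 0.0414 and 0.00667), where 0.701% of all genes were. Klra7 and Klra4 were also called in the fit without GFP tumor 7 (limma adjusted p = 0.0463 and 0.0357).

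**Figure D4:**
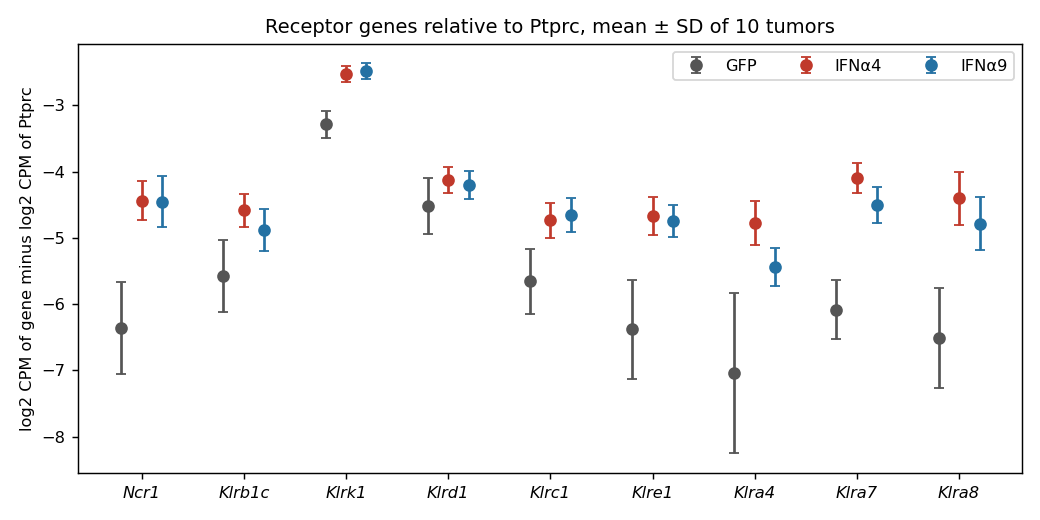
Log2 CPM of each receptor gene minus log2 CPM of Ptprc in the same tumor (y axis), as mean ± SD of 10 tumors, for GFP (gray), IFNα4 (red) and IFNα9 (blue) tumors. The 3 means of Klrd1 lie closest together, and Klra4 and Klra7 have the largest gaps between IFNα4 and IFNα9 tumors.

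Relative to Ncr1 in the same tumor, 4 of the other 8 receptors were called lower in each comparison with GFP tumors. Klrb1c, Klrk1, Klrd1 and Klrc1 were lower relative to Ncr1 in IFNα4 than in GFP tumors, with log2 differences between -1.53 (Klrd1) and -0.94 (Klrb1c) (limma adjusted p at most 0.00147), and in IFNα9 than in GFP tumors, with differences between -1.59 (Klrd1) and -0.90 (Klrc1) (limma adjusted p at most 0.00278). Klre1 and the 3 Ly49 genes were not called relative to Ncr1 in either comparison, with differences between -0.21 and 0.34 in IFNα4 tumors and between -0.32 and -0.18 in IFNα9 tumors, and the called genes were not tested against these 4. A fall relative to Ncr1 was the rule, since 99.7% of all genes were called lower in both comparisons. Between IFNα9 and IFNα4 tumors 0 of the 8 ratios were called by limma, and 1 had an unadjusted p under 0.05, that of Klra4 (-0.65, p = 0.0498, limma adjusted p = 0.186), where 0.138% of all genes were called lower.

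Other receptor genes of the same family rose as well. Of 19 relatives, 16 were tested, and 15 rose and 0 fell in both IFN-I types against GFP tumors, with a median log2 fold change of 3.73 in IFNα4 and 3.08 in IFNα9 tumors. The largest rises in IFNα4 tumors were those of Klra6 (4.56), Klra9 (4.35) and Klrb1f (4.27), and Klrg2 was not called (0.16, edgeR adjusted p = 0.377). Klra6, Klra9 and Klrb1f had median counts of only 0.5, 9 and 7.5 in GFP tumors, which limits the precision of their fold changes. Between IFNα9 and IFNα4 tumors 8 of the 16 were lower and 0 higher, beside 7.25% and 10.5% of all genes. Klrg1, an inhibitory receptor of mature NK cells and effector T cells, differed in sign from most, at 3.46 CPM in IFNα4 and 6.02 CPM in IFNα9 tumors, although its difference did not pass (log2 difference 0.80 ± 0.30, edgeR adjusted p = 0.0594). Klra5 and Klrb1 fell below the count filter, with at most 25 and 6 counts in a tumor, and Klrh1 was not analysed here.

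Of 14 other NK cell surface receptors tested, 13 rose in IFNα4 and 12 in IFNα9 tumors, led in IFNα4 tumors by Slamf7 (3.60), Il18rap (3.46), a chain of the interleukin-18 receptor, and Crtam (2.71). Crtam had a median of only 7 counts in GFP tumors. Fcgr3, the low-affinity IgG receptor that NK cells share with myeloid cells, was lower in IFNα4 than in GFP tumors (-0.49, edgeR adjusted p = 0.00832) and higher in IFNα9 than in IFNα4 tumors (0.65, edgeR adjusted p = 0.00463). Cd226, the activating receptor DNAM-1, and Il12rb1, a chain of the interleukin-12 receptor, were higher in IFNα9 than in IFNα4 tumors, by 0.75 and 1.03 on the log2 scale (edgeR adjusted p = 0.0294 and 0.00604). Slamf7, Slamf6, Il18rap and Cd160 were lower in IFNα9 tumors.

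The adaptors through which the activating receptors signal rose too, to unequal extents. Tyrobp, which encodes DAP12 and serves Ly49D and Ly49H, rose by 0.82 in IFNα4 and 0.50 in IFNα9 tumors on the log2 scale. Hcst, which encodes DAP10, the adaptor of NKG2D, rose by 1.67 and 0.87, and Fcer1g, the gamma chain that serves NKp46 and NK1.1, by 1.28 and 0.85. Cd247, the zeta chain that serves NKp46 and also the T cell receptor, rose by 2.67 and 2.30, beside 4.66 and 4.14 for Ncr1. Klrd1, the member with the smallest rise, rose by 3.13 and 2.53, and the differences between adaptors and receptors were not tested. Tyrobp and Fcer1g are also expressed by myeloid cells, and were at 69.3 and 120 CPM in GFP tumors, where Ncr1 was at 0.922 CPM. Of 15 adaptor and signaling genes 14 rose in both types, the most in IFNα4 tumors being Sh2d1b2 (4.49), Sh2d1a (3.87) and Zap70 (2.94), and Ptpn11, the gene for a widely expressed phosphatase, was not called (0.05, edgeR adjusted p = 0.419). Sh2d1b2, Sh2d1a and Zap70 had median counts of only 6.5, 4 and 9 in GFP tumors, which limits the precision of their fold changes.

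Ligands of the receptors moved in both directions. H2-T23, which encodes Qa-1, the molecule that CD94/NKG2A binds, rose by 2.37 on the log2 scale in IFNα4 and 1.90 in IFNα9 tumors, and the class I genes H2-K1 (2.20 and 1.52) and H2-D1 (1.88 and 1.28), whose products bind Ly49 receptors, rose as well. Raet1d and Raet1e, of the family of NKG2D ligands, were lower than in GFP tumors, by -0.97 and -0.76 in IFNα4 tumors (edgeR adjusted p = 0.000354 and 0.00624) and by -0.91 and -0.90 in IFNα9 tumors (edgeR adjusted p = 0.000905 and 0.00206). H60c, another NKG2D ligand gene, named after its values were seen, rose in IFNα4 tumors (0.70, edgeR adjusted p = 0.00451) and was not called in IFNα9 tumors (0.38, edgeR adjusted p = 0.12). Over the list, 6 of 10 tested ligand genes rose and 4 fell in IFNα4 tumors, beside the 34.1% of all genes that fell, the other 2 that fell being the DNAM-1 ligands Pvr (-0.31) and Nectin2 (-0.30), while 5 rose and 2 fell in IFNα9 tumors, beside 28.9% of all genes. Raet1a, Raet1b, Raet1c, Ulbp1 and H60a were not analysed here.

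Of 9 transcription factor genes tested, 7 rose in IFNα4 and 6 in IFNα9 tumors. Tbx21 (T-bet) rose by 4.35 and 3.43 on the log2 scale, Ikzf3 by 3.64 and 3.10, and Eomes, which with T-bet directs NK cell maturation, by 3.41 and 3.03. Ets1 was lower than in GFP tumors in both types (-0.58 and -0.33), and Nfil3, which is needed for NK cell development, was not called in either (-0.20 and -0.33, edgeR adjusted p = 0.244 and 0.0532). Tbx21 was also lower in IFNα9 than in IFNα4 tumors (-0.92, edgeR adjusted p = 0.0126), which was not called for Eomes (-0.38, edgeR adjusted p = 0.331). All 8 cytotoxic effector and chemokine genes tested rose in both types, led in IFNα4 tumors by Fasl (3.98), Ccl4 (3.78) and Nkg7 (3.63). Of the 8, 4 were lower in IFNα9 than in IFNα4 tumors, beside 7.25% of all genes. Among cytokines that sustain NK cells, Il15 rose by 2.09 in IFNα4 and 1.46 in IFNα9 tumors, and every IFNα9 tumor lay below every IFNα4 tumor (-0.63 between them, edgeR adjusted p = 0.007). Il15ra (1.49 and 1.10) and Il18 (0.97 and 0.60) rose too, and Il2 and Il12b were not called in any of the 3 comparisons.

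**Figure D5:**
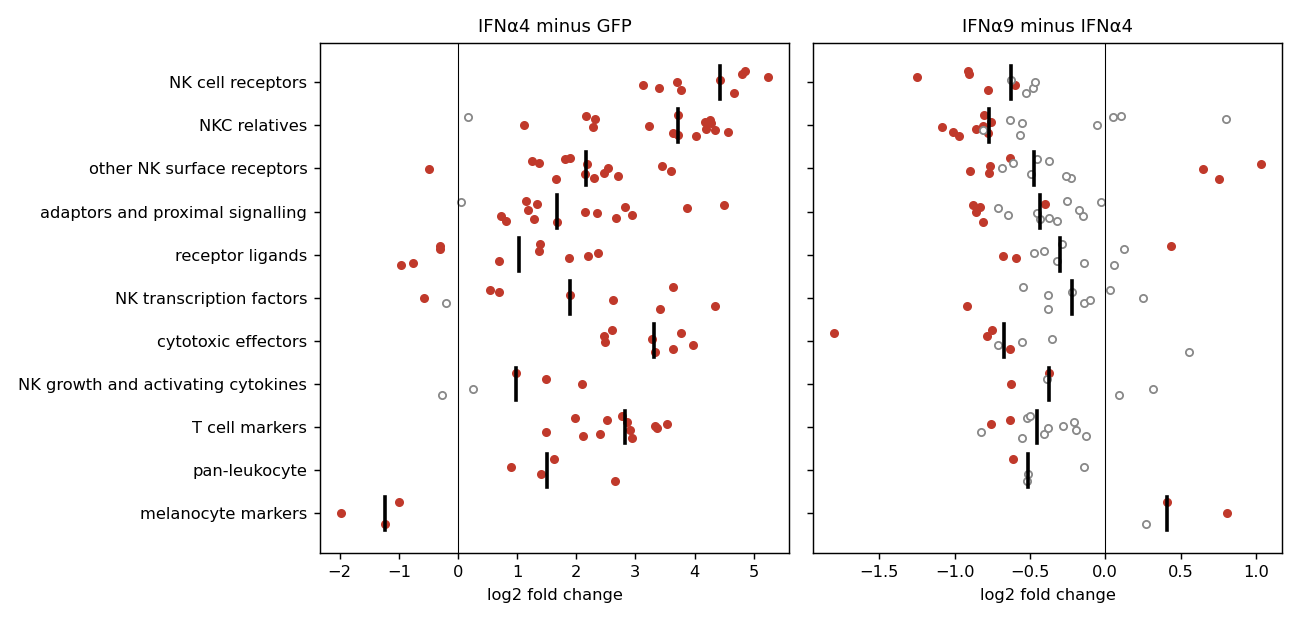
Log2 fold change (x axis) of each tested gene in the receptor set and 10 gene lists (rows), for IFNα4 minus GFP tumors on the left and IFNα9 minus IFNα4 tumors on the right; filled points have an edgeR adjusted p under 0.05, open points do not, and the vertical bar is the median of the list. The receptors have the highest median on the left (4.43), and melanocyte genes lie below 0 on the left and above 0 on the right. Receptors and lists were chosen with earlier results of these data known, so that the order of their medians is only a description.

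Markers of some other cells, T cells foremost, rose with the receptors. Of all genes, 31.3% were called higher and 34.1% lower in IFNα4 tumors, and 26.9% and 28.9% in IFNα9 tumors, against which the counts of the shorter lists are to be read. All 12 tested T cell genes rose in IFNα4 tumors and 11 in IFNα9 tumors, with medians of 2.82 and 2.33, led in IFNα4 tumors by Cd28 (3.54), Cd8a (3.36) and Cd8b1 (3.33). Their summed level was 11.2 to 73.6 CPM in GFP, 125 to 250 CPM in IFNα4 and 50.5 to 184 CPM in IFNα9 tumors, and their part in the receptor changes was not tested. The highest GFP sum included Cd4 in GFP tumor 8 at 46.5 CPM, beside a GFP median of 2.92. Without Cd4, a sum added after the data were seen, the level was 10.7 to 42.1 CPM in GFP, 109 to 214 CPM in IFNα4 and 44.9 to 169 CPM in IFNα9 tumors, and the GFP range overlapped neither of the others. Relative to Cd3e in the same tumor, a ratio added after the data were seen, all 9 receptor genes were higher in both IFN-I types than in GFP tumors, where 1.73% of all genes were in IFNα4 and 1.13% in IFNα9 tumors. The smallest of these differences was that of Klrd1 (0.97 in IFNα4 and 0.52 in IFNα9 tumors). Between IFNα9 and IFNα4 tumors 0 of the 9 ratios to Cd3e were called by limma, where 0.609% of all genes were lower, and 5 had an unadjusted p under 0.05, with Klra4 the largest (-1.04, limma adjusted p = 0.0971). Cd3e itself rose by 2.11 and 1.98, less than Cd8a (3.36 and 2.99). Relative to Cd8a, a reference also added after the data were seen, 5 of the 9 were called higher in IFNα4 than in GFP tumors (Ncr1, Klre1, Klra4, Klra7 and Klra8, by 0.91 to 1.46), where 0.144% of all genes were. In IFNα9 tumors 2 were (Ncr1, by 1.11, limma adjusted p = 0.0138, and Klra8, by 0.93, limma adjusted p = 0.0312), where 0.157% of all genes were. Klrk1 (-0.04 and 0.00), Klrd1 (-0.41 and -0.48), Klrc1 (0.12 and 0.21) and Klrb1c (0.18 and -0.11) were called in neither type by limma relative to Cd8a, with SEs of 0.42 to 0.43. Cd8a had 0 to 38 counts in GFP tumors (median 9.5), which limits this ratio. Between IFNα9 and IFNα4 tumors 0 of the 9 ratios to Cd8a were called by limma, and 0 had an unadjusted p under 0.05, beside 0.0628% of all genes called lower. Of 6 macrophage and monocyte genes 5 rose in each type (medians 1.43 and 1.34), and all 4 pan-leukocyte genes rose (medians 1.51 and 0.95). Of 5 genes listed for type 1 innate lymphoid cells, which also carry NKp46 and NK1.1, 2 rose and 3 fell in each type (medians -0.33 and -0.38), too few to set apart from the shares of all genes. Of the remaining lists, 3 of 4 gamma delta T and NKT, 4 of 5 ILC2, 1 of 2 B cell and 1 of 4 neutrophil genes rose in IFNα4 tumors, 2, 4, 1 and 1 of them in IFNα9 tumors, and 2 neutrophil genes fell in each. The neutrophil counts are near the shares of all genes. The 3 tested melanocyte genes, Tyrp1 among them (-1.97 and -1.17), fell in both types, with a summed level of 7224 to 22850 CPM in GFP, 2160 to 3635 CPM in IFNα4 and 3371 to 8928 CPM in IFNα9 tumors.

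The genes most like the 9 receptors over the 30 tumors, by Pearson's r of log2 CPM with the mean of the 9, were Ms4a4b (r = 0.992), Il18rap (0.988), Klra9 (0.987), Ikzf3 (0.987) and Ifih1 (0.986). These coefficients contain the difference between tumor types. With the mean of each type taken off, the 5 closest were Il18rap (0.920), Ms4a4b (0.911), Klra9 (0.906), Stat4 (0.898) and Ikzf3 (0.890). On this second measure Ptprc ranked 25 of 15917 genes (0.841), Eomes 163 (0.752), Il15 192 (0.740), Cd3e 469 (0.670), Tbx21 481 (0.667) and Cd8a 1288 (0.554), and the adaptors Fcer1g 1747 (0.510), Tyrobp 1839 (0.502) and Hcst 4827 (0.256). Hcst had low counts, with a median of 11 in GFP tumors. Ms4a4b, a membrane protein gene of lymphocytes, was at 5.15 CPM in GFP, 144 CPM in IFNα4 and 70.5 CPM in IFNα9 tumors.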

How the data were processed

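The deposited values were raw counts of reads per gene and tumor, which the authors made from stranded mRNA libraries and single-end reads of 50 bases. The submitters' processing notes name FastQC 0.11.3, HISAT2 2.0.4 and the genome mm10, whereas the methods name mm11, and counting was by summarizeOverlaps with overlap mode, strand setting and multiply aligned reads not given in the sources used here. Versioned gene identifiers were matched to GENCODE M21 (39495 of 39676), which gave symbols, positions and exon lengths. Total counts had a median of 16712970.5 per tumor, and no columns were identical. Whether each tumor came from its own mouse is not stated in the labels, and p-values measure the spread between these tumors.

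Counts were fitted in R 4.3.3 with edgeR 4.0.16 (TMM, quasi-likelihood test, 1 fit of all 30 tumors, genes averaging 10 counts or more), with Benjamini-Hochberg adjustment over 15926 genes and a threshold of 0.05. SEs follow from each fold change divided by the root of F. Levels are CPM with TMM factors, and log2 CPM took a prior count of 2. Ratios to Ptprc, Ncr1, Cd3e and Cd8a were fitted with limma 3.58.1 over all genes. Correlations were tested by two-sided permutation (scipy 1.17.1). The fitting was tested on simulated data. Alternatives were DESeq2 1.42.0, its size factors, library totals, other count filters, only the 2 types compared, a replicate block, a prior count of 0.5 and leaving out single tumors.

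The members and gene lists were chosen with earlier results of these data known. Named were the 9 members, the 3 genes of each list with the largest absolute fold change between IFNα4 and GFP tumors, genes that did not move with their list, a set of fixed genes (among them Ptprc, Cd3e, Cd8a, Tyrobp, Hcst, Fcer1g, Eomes, Tbx21, Il15 and the class I genes) and the 5 genes most like the members on each measure. Other genes were named after their values were seen. Promoter windows came from RefSeq (GRCm38.p6). Shared 50-base stretches were counted between the annotated transcripts of the receptor genes and those of other genes.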

Additional observations from a re-analysis of the deposited data

Results flagged for a closer look

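Each receptor gene and the sum of all 9 were searched for a tumor far from the other 9 of its type, 30 groups in all. Chance alone would flag about 1.5 of 30 separate groups, but these are not separate, since the genes vary together and the sum contains them. The 4 that met this rule were all the same library, GFP tumor 7, as the lowest of the GFP tumors. Its log2 CPM was 0.71 for Klrk1 (nearest other GFP tumor 2.73), -1.08 for Klrc1 (nearest 0.16) and -3.09 for Klra8 (nearest -0.84), the last from 0 counts. At 0 counts the value is set by the prior count of 2. The log2 of the summed CPM of the 9 genes was 2.37 in this tumor, beside 3.93 in the next lowest. The gap to the nearest tumor took up between 0.542 and 0.633 of the whole range, above the 95% critical value of Dixon for 10 samples. The cause was not tested.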

How the results depend on the processing

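All 9 receptors were called higher in IFNα4 and in IFNα9 than in GFP tumors under every alternative tried and in all 30 fits that left out 1 tumor (9 to 9 members in both comparisons), and no result reversed. Between IFNα9 and IFNα4 tumors the count of 5 was the least stable, from 3 to 7 with 1 tumor left out. It was 3 without IFNα4 tumor 1, IFNα9 tumor 5 or IFNα9 tumor 10, where Klrd1 and Klra8 were lost, and 7 without GFP tumor 7, where Klrk1 and Klrc1 were gained (edgeR adjusted p = 0.045 and 0.0422). Klra8 passed in 19 of the 30 such fits (edgeR adjusted p up to 0.0982). DESeq2 called 5, and a fit of only these types called 6, with Klre1 (edgeR adjusted p = 0.0384) gained. Relative to Ptprc, 0 members were called between IFNα9 and IFNα4 tumors, but 2 without GFP tumor 7 and 2 in the fit of only these types, and between IFNα9 and GFP tumors 9 in place of 8 without GFP tumor 7. With the replicate number as a block the count between IFNα9 and IFNα4 tumors was 4, Klra8 being lost (edgeR adjusted p = 0.0856), and relative to Ptprc 8 in place of 9 were higher in IFNα4 than in GFP tumors. No pairing of the tumors by number was seen. Same-numbered tumors had correlations of deviations between -0.267 and 0.302 (4 of 30 over 0.1), and other pairs between -0.453 and 0.508 (74 of 270 over 0.1). Tumors matched their own number best in 4 of 60 trials. Low correlations do not exclude a pairing that the labels leave out. Low counts in GFP tumors, with a median of 7 for Klra4, limit the precision of every ratio to Ncr1 there.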
